A study of Drosophila melanogaster with 32 samples.

Results

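The Bomanins are a family of small peptide genes of Drosophila, and 10 of them, BomS1, BomS2, BomS3, BomS5, BomT1, BomT2, BomT3, BomBc1, BomBc2 and BomBc3, were followed here among the 17559 genes counted in heads of male Drosophila melanogaster. Their rows were found by FlyBase symbol. All 10 passed the filter on low counts in every fit. The study measured polyadenylated RNA in 32 libraries, each made from a pool of about 100 flies, of 4 strains, which the labels name hsp70-1c and hsp70-4c as well as hsp70- and w+hsp70-, and its title names Hsp70 and memory. Naive flies gave 4 libraries each in hsp70-1c and hsp70-4c and 3 each in hsp70- and w+hsp70-. Flies that had been trained were frozen 5 h later (3 libraries per strain) or 24 h later (3 libraries each, hsp70-1c and hsp70-4c only). The labels give no age, no account of the training and no meaning for the strain names, and they do not say whether a strain is 1 line or clone. For naive hsp70-4c flies the sample title says 5 h control and the time label says naive; the time label was followed.

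Bomanins are secreted into the haemolymph, mainly by the fat body, when the Toll pathway is active. In that pathway, fungal or Gram-positive bacterial products are sensed outside the cell, a chain of proteases cuts the ligand Spätzle, and the receptor Toll then frees the factors Dif and Dorsal to enter the nucleus. Flies without the main Bomanin cluster are known to be nearly as sensitive to such infections as flies without Toll signalling. The short-form peptides (BomS) consist of little more than the shared Bomanin motif, the tailed ones (BomT) carry the motif followed by a further stretch, and the bicipital ones (BomBc) hold a pair of motifs joined by a linker. Bombardier, the product of Bbd, is needed for the short-form peptides to accumulate in haemolymph.

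Along the genome (BDGP6, the Ensembl annotation in dm6 coordinates), 8 of the 10 genes lay in a cluster of 9237 bases on chromosome arm 2R, from 18381393 to 18390629. The order there was BomT1, BomBc1, BomS1, BomS4, BomBc2, BomS2, BomS3, BomT2, BomS5 and BomS6, with no other annotated gene between them; BomS4 and BomS6 are family genes outside the 10. The remaining pair sat on chromosome arm 3R, BomT3 at 22085374 to 22086397 on the minus strand and BomBc3 at 22087075 to 22088501 on the plus strand, with start sites 678 bases apart and pointing away from each other. BomBc2 (18384824 to 18385589, minus strand) overlapped BomS4 (18384567 to 18384911, plus strand) by 88 exonic bases. The strand setting of the counting is not given in the sources used here, so reads of that overlap cannot be assigned with certainty.

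Reads assigned to genes ranged from 4.542 to 10.345 per library in units of 1e+06 reads (median 7.3715). Hsp70Bc, a heat-induced Hsp70 gene, had 21 to 54 counts in each hsp70-4c library, 0 to 3 in hsp70-1c and 0 in the other strains. The pigment transporter gene w was at 71.9 to 98.2 CPM (counts per 1e+06 reads) in w+hsp70- and at 0 to 0.404 CPM in hsp70-. In hsp70-4c w was at 21.9 to 39.9 CPM and in hsp70-1c at 5.21 to 9.92 CPM, without overlap. Of the head markers checked, the synaptic gene nSyb was at 393 to 616 CPM and the glial gene repo at 14.6 to 28.1 CPM, while the neuronal gene elav was near 0 (0 to 1.27 CPM, with 2 libraries at 0). In the annotation used here elav shares exons on the same strand with lncRNA:enrr, where reads could be ambiguous, so its value may not show its expression. Over all libraries the summed markers ran from 312 to 481 CPM for 8 haemocyte genes, from 0 to 8.56 CPM for 8 testis genes and from 18979 to 39583 CPM for 4 photoreceptor genes.

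Summed, the Bomanin genes took 0.328 to 0.676% of the assigned reads of a library. BomS2, a short-form gene, was the most abundant at 1364 ± 300.3 CPM (SD, n = 32 libraries) and made up 28.2 to 30.7% of the summed level, as a mean over the libraries of a strain. BomS1 (625 ± 152 CPM), BomS3 (601 ± 134 CPM) and the tailed gene BomT3 (599 ± 112 CPM) followed. The bicipital genes BomBc2, BomBc1 and BomBc3 were at 514 ± 118, 394 ± 84.6 and 193 ± 71.9 CPM. BomS5 was at 215 ± 56.1 CPM and the tailed gene BomT2 at 124 ± 33.6 CPM. BomT1, at the outer end of the cluster, was the lowest at 7.67 ± 1.93 CPM, from only 22 to 125 counts per library, so its values are the least precise. Per kilobase of exon, the scale on which genes can be compared, the level was 3718 CPM per kb for BomS2, 1730.1 for BomS1, 987 for BomS5, 912 for BomT3, 843 for BomBc1, 782 for BomS3, 723 for BomBc2, 324 for BomT2, 148 for BomBc3 and 19.7 for BomT1. Within the cluster the level per kilobase thus differed by up to 189-fold, between BomS2 and BomT1. The length used is that of all annotated exons of a gene. BomS3, BomT3 and BomBc2 have 2 annotated transcripts and BomBc3 has 3. Their places on this scale depend on which transcripts were present, which was not measured.

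**Figure D1:**
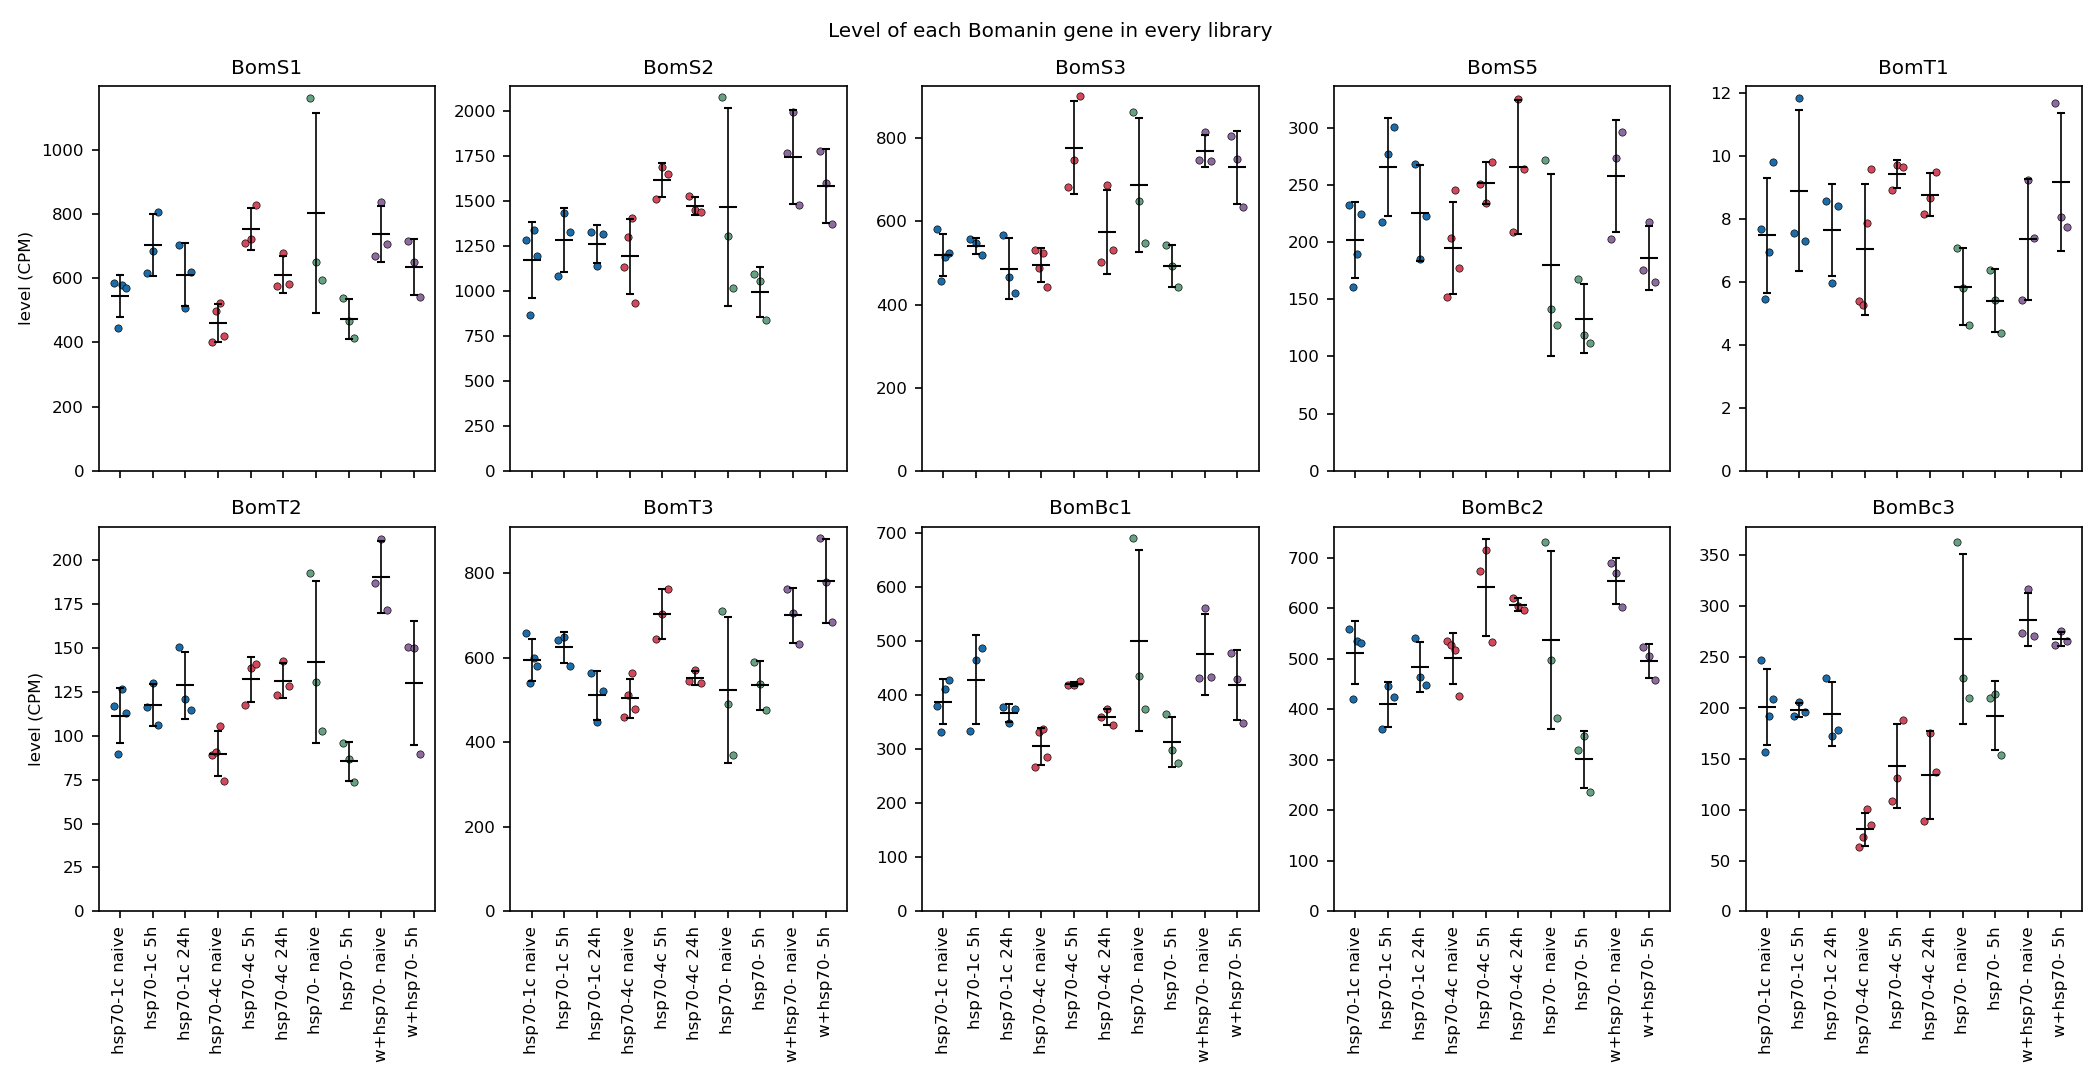
Level of each Bomanin gene (CPM, y axis from 0) in each of the 32 libraries, by strain and time; points are libraries, bars the group mean with 1 SD. BomBc3 is low in the 4 naive hsp70-4c libraries (63.8 to 101 CPM), and the 5 h hsp70-4c points of BomS1, BomS3 and BomT3 all lie above the naive ones.

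The summed level by group ran from 3522 ± 460.3 CPM in hsp70- at 5 h to 5822 ± 534 CPM in naive w+hsp70- (n = 3 each). In hsp70-1c it was 4246 ± 529 CPM in naive flies (n = 4), 4577 ± 392 at 5 h and 4274 ± 442 at 24 h (n = 3 each). In hsp70-4c it was 3829.7 ± 439 CPM in naive flies (n = 4), 5447 ± 296 at 5 h and 4715 ± 260.0 at 24 h (n = 3 each). The naive hsp70- libraries were at 7064, 4536 and 3732 CPM, a spread that covers the other strains' group means, and w+hsp70- at 5 h was at 5235 ± 618 CPM. When the 10 groups were ordered by mean, the library ranges of neighbouring groups overlapped in 9 of 9 steps for the sum and for each gene except BomBc2, where they overlapped in 7 of 9. In bulk heads, fewer Bomanin-expressing cells and less Bomanin RNA per cell cannot be told apart.

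**Figure D2:**
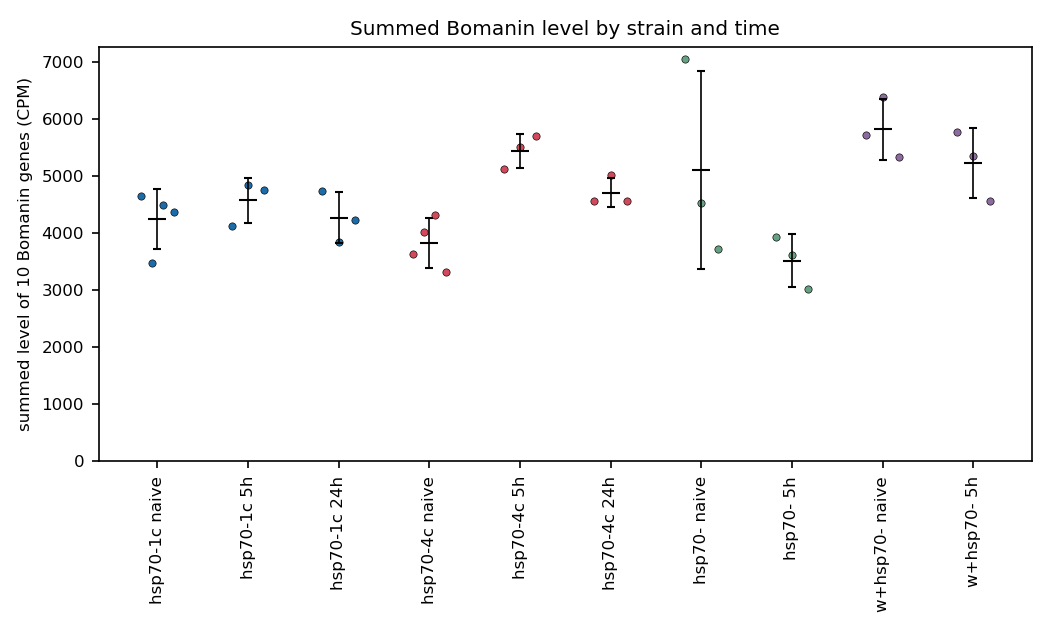
Summed level of the 10 Bomanin genes (CPM, y axis from 0) by strain and time; points are libraries, bars the group mean with 1 SD. The 3 hsp70-4c libraries at 5 h (5125 to 5708 CPM) lie above the 4 naive ones (3330.1 to 4329 CPM), and 1 naive hsp70- library, at 7064 CPM, is the highest of all.

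After training, at 5 h, 6 of the 10 Bomanins in hsp70-4c were above their level in naive flies of the strain and the other 4, BomBc2, BomBc3, BomS5 and BomT1, did not pass (5.48% of all genes were called, 3.04% higher). BomS1 was at 399.8, 498, 523 and 420.1 CPM in naive libraries and at 711, 721 and 827 CPM at 5 h. The groups did not overlap, and the log2 change was 0.72 (SE 0.11, edgeR quasi-likelihood test, adjusted p = 0.00334). BomS3 went from 530.3, 488, 524 and 442 CPM to 683, 749 and 902 CPM, a log2 change of 0.66 (SE 0.12, edgeR adjusted p = 0.00981). BomS2, the most abundant member, was at 1129, 1299, 1404 and 931 CPM in naive flies and at 1511, 1689 and 1648 CPM at 5 h (log2 change 0.45, SE 0.11, edgeR adjusted p = 0.0384). All of these short-form genes were thus higher at 5 h in every library.

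The tailed and bicipital genes moved likewise in hsp70-4c. BomT3, on 3R, was at 459.9, 511, 564 and 479 CPM in naive flies and at 643, 702 and 762 CPM at 5 h, a log2 change of 0.49 (SE 0.09, edgeR adjusted p = 0.00853). BomT2 was at 88.8, 90.8, 105 and 74.3 CPM and then at 117, 138 and 141 CPM, a log2 change of 0.56 (SE 0.11, edgeR adjusted p = 0.0133). BomBc1 was at 267, 332, 336 and 286 CPM and then at 418, 419 and 426 CPM, with a spread at 5 h of only 4.19 CPM (SD) and a log2 change of 0.47 (SE 0.09, edgeR adjusted p = 0.0106). Neither of these genes overlapped between the groups. BomBc3 had the largest change of the family, from 63.8, 73.2, 101 and 85.1 CPM to 108, 131 and 188 CPM, but it varied too much to pass (log2 change 0.83, SE 0.27, edgeR adjusted p = 0.121). BomBc2 (0.36), BomT1 (0.43) and BomS5 (0.38) had positive log2 changes and did not pass, and each overlapped between the groups.

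None of the 10 was called lower. All 10 log2 changes were positive, with a median of 0.48, against a median of 0.00 over all genes tested. In 7 of the 10 every 5 h library was above every naive one, as in 10.4% of all genes. Without regard to multiple testing 9 had p under 0.05, and DESeq2 called 8. Of all 10400 genes, 2357 had unadjusted p under 0.05 and DESeq2 called 682. The calls of BomS1, BomS3 and BomT3 held under each of 5 alternative settings and each of 10 left-out libraries. BomS2 lost its call without any of the 5h replicates, naive replicates 1, 2 or 4 or 24h replicate 3 (edgeR adjusted p from 0.0302 to 0.137 over the left-out libraries), and BomT2 lost it without 5h replicate 2 or 3 (up to 0.0619). With all 32 libraries in 1 fit BomS2, BomT2 and BomBc1 lost their calls (edgeR adjusted p = 0.147, 0.0538 and 0.0696) and BomBc3 gained one (0.0207), which left 4. The summed level of 7 fat body markers was 2941 CPM in naive and 2859.9 CPM at 5 h in this strain (ranges 2360.1 to 3243 and 2412 to 3698 CPM), and 1 of 6 tested markers passed. That was fit, which rose by 1.81 at 5 h (log2, SE 0.32, edgeR adjusted p = 0.0193) and fell by 2.09 from 5 h to 24 h (SE 0.35, edgeR adjusted p = 0.0384). The part of the fat body in the Bomanin values was not tested. Of those markers Fbp1 was at or near 0 in every library and the other 6 were present in all.

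**Figure D3:**
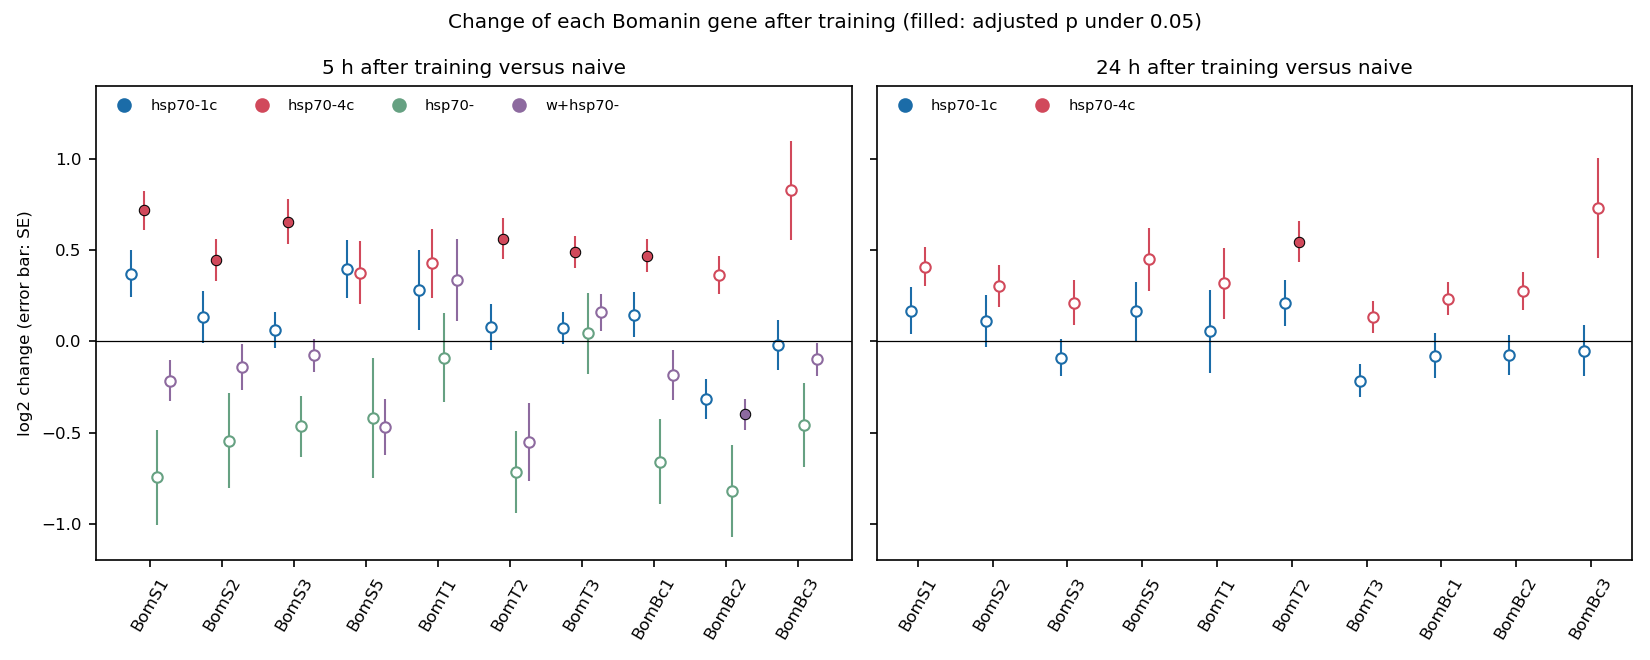
Change of each Bomanin gene 5 h and 24 h after training against naive flies of the same strain (log2, y axis); points are strains, bars 1 SE of the fit, and filled points passed an adjusted p of 0.05. At 5 h all 10 hsp70-4c points lie above 0 and 9 of the 10 hsp70- points lie below it.

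The short-form peptides' partner Bbd was higher too in hsp70-4c, from 918, 1171, 1374 and 1196 CPM in naive flies to 1643, 1660.0 and 1965 CPM at 5 h (log2 change 0.60, SE 0.14, edgeR adjusted p = 0.0331). This call was lost without any of the 5h replicates, naive replicates 1, 2 or 4 or 24h replicate 3 (edgeR adjusted p up to 0.129). BomS6, at the other end of the cluster, had a log2 change of 0.32 (SE 0.13, edgeR adjusted p = 0.154), and BomS4, inside the cluster, one of -0.32 (SE 0.12, edgeR adjusted p = 0.131). Of 7 tested other Toll-responsive peptide genes, Bbd and both of these included, 1 was higher and 0 lower. Among them were Dso2, a Daisho antifungal peptide gene, at a log2 change of 0.38 (SE 0.15), and Mtk, metchnikowin, at 2.56 (SE 0.96), and neither passed. None of 12 Toll recognition and extracellular genes and none of 10 genes of the receptor and cytoplasm passed in either direction (edgeR; 3 and 2 with unadjusted p under 0.05, 1 and 0 by DESeq2), with medians of -0.02 and -0.03. Among all 10400 genes 5.48% were called by edgeR, 2357 had unadjusted p under 0.05 and DESeq2 called 682. For lists of 12 and 10 genes, 0 calls by edgeR is near that share. Of 9 Imd-responsive peptide genes, the antibacterial set of the other immune pathway, 0 passed by edgeR (8 with unadjusted p under 0.05, 8 by DESeq2), although all 9 log2 changes were positive (median 4.03), with DptA, diptericin, at 5.80 (SE 1.55, edgeR adjusted p = 0.0818).

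At 24 h the hsp70-4c group means lay between the naive and the 5 h means for every Bomanin except BomS5, which was highest at 24 h. BomT2 was at 123, 142 and 128 CPM, above all 4 naive libraries, and was the 1 member of 10 that passed (log2 change 0.55 against naive, SE 0.11, edgeR adjusted p = 0.0467; 0.923% of all genes were called, 0.5% higher). BomS1, at 575, 677 and 582 CPM, was also above every naive library, with a log2 change of 0.41 (SE 0.11, edgeR adjusted p = 0.0787). All 10 changes were positive (median 0.31), and in 5 of the 10 every 24 h library was above every naive one, as in 7.67% of all genes. Unadjusted p was under 0.05 in 7 of the 10 and in 1588 of all 10400 genes. Against 5 h none passed by edgeR (0.981% of all genes called), 4 had unadjusted p under 0.05, all lower at 24 h, and DESeq2 called 1. Of all genes, 1091 had unadjusted p under 0.05, 512 of them lower, and DESeq2 called 171. Every 24 h library was below every 5 h one for BomS1, BomT3 and BomBc1, 3 of the 10, as in 6.7% of all genes. BomT3 had the smallest p of these, going from 643 to 762 CPM at 5 h to 546, 571 and 540.1 CPM at 24 h (log2 change -0.35, SE 0.10, edgeR adjusted p = 0.137). Bbd was also higher than in naive flies at 24 h, at 1779.6, 2490.5 and 1947 CPM, with overlap with 5 h (log2 change 0.83 against naive, SE 0.14, edgeR adjusted p = 0.0365). The 24 h calls of BomT2 and Bbd were both lost without 24h replicate 2 or 3, 5h replicate 2 or any naive replicate (edgeR adjusted p up to 0.237 and 0.225).

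In hsp70-1c, trained and naive flies gave no Bomanin call. At 5 h 0 of 10 passed, where 3.51% of all genes were called, and DESeq2 also called 0, against 513 of all genes. BomS1 was at 583, 445, 578 and 568 CPM in naive libraries and at 615, 685 and 806 CPM at 5 h, without overlap, as in 7.74% of all genes above (log2 change 0.37, SE 0.13, edgeR adjusted p = 0.155). BomS5 was at 232, 161, 189 and 225 CPM and then at 218, 277 and 301 CPM, with overlap (log2 change 0.40, SE 0.16, edgeR adjusted p = 0.224). BomBc2 was at 560.1, 420.2, 536 and 531 CPM in naive flies and at 361, 446 and 425 CPM at 5 h, with overlap (log2 change -0.32, SE 0.11, edgeR adjusted p = 0.149). These were the 3 members with unadjusted p under 0.05, against 1810 of all 10514 genes. Leaving out naive replicate 2, the lowest Bomanin library of its group, gave 1 call. Fat body markers summed to 5193 CPM in naive hsp70-1c and 2653 CPM at 5 h, without overlap (4515 to 5863 and 2450.5 to 2974 CPM). The tested markers did not move alike. Lsp2 (log2 change -1.68), AkhR (-0.77), fit (-0.77) and apolpp (-0.49) were called lower, and Mtp (0.03) and to (-0.03) were not called. The part of the fat body in the Bomanin values was not tested. At 24 h 0 of 10 passed, as did 0% of all genes. There 1 Bomanin had unadjusted p under 0.05 and DESeq2 called 0, against 974 and 75 of all 10514 genes. Between 24 h and 5 h 0 of 10 passed (1.36% of all genes). In that comparison 1 had unadjusted p under 0.05 and DESeq2 called 0, against 1059 and 261 of all genes. There BomBc2 was higher in every 24 h library than in any at 5 h (as 7.84% of all genes were), and BomT3 lower (as 7.37% were). Among the pathway genes grass, an extracellular protease gene upstream of Spätzle, was lower at 5 h (log2 change -0.36, SE 0.09, edgeR adjusted p = 0.0391), the 1 call of its 12 genes, and of 11 Imd-responsive genes 1 was higher, the cecropin gene CecB (5.19, SE 1.18, edgeR adjusted p = 0.0391). Both calls were lost without 5h replicate 2 or naive replicate 1, 3 or 4, grass also without 5h replicate 3 or 24h replicate 1 or 2, and CecB without naive replicate 2 or 24h replicate 3.

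In hsp70- flies the Bomanins had lower means at 5 h than in naive flies, without a call. BomBc2 was at 731, 499 and 383 CPM in naive libraries and at 319, 347 and 237 CPM at 5 h (log2 change -0.82, SE 0.25, edgeR adjusted p = 0.574). BomS1 was at 1160.4, 652 and 595 CPM and then at 539, 467 and 414 CPM (log2 change -0.74, SE 0.26, edgeR adjusted p = 0.65). Neither overlapped between the groups, and naive replicate 1 was the highest library for both. Of the 10 changes 9 were negative (median -0.50), and in 5 genes all 5 h libraries were below all naive ones, as in 6.76% of all genes. No member passed by edgeR or DESeq2, and 5 had unadjusted p under 0.05. Of all 9849 genes 0.0305% were called by edgeR and 39 by DESeq2, and 621 had unadjusted p under 0.05. Without naive replicate 1 the log2 change of BomS1 was -0.39 and that of BomBc2 -0.55. Among the naive libraries of this strain replicate 1 was the lowest in summed fat body markers (1582 CPM against 2186 and 1923 CPM) and the highest in Bomanins. It was the lowest of all 32 libraries in summed neuron markers (598 CPM against 979 and 1046 CPM in its group). The 5 h replicate 3 was lower still in fat body markers (1503 CPM), and it had the lowest summed Bomanin level of the strain (3022 CPM). The part of either in the Bomanin values was not tested. Of 6 Imd-responsive genes tested there 1 rose, the attacin gene AttA (log2 change 1.92, SE 0.18, edgeR adjusted p = 0.00657), a call lost without naive replicate 2 or 5h replicate 1.

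In w+hsp70- flies 1 Bomanin of 10 passed at 5 h, where 1.93% of all genes were called (0.949% lower). BomBc2 fell from 689.9, 670.4 and 602 CPM to 524, 505 and 457 CPM, without overlap (log2 change -0.40, SE 0.09, edgeR adjusted p = 0.0259). BomT2 was at 187, 212 and 172 CPM and then at 150.4, 149.7 and 89.3 CPM, also without overlap, and did not pass (8.02% of all genes were lower in every library; log2 change -0.55, SE 0.21, edgeR adjusted p = 0.414). BomT3 pointed the other way, at 762, 706 and 631 CPM in naive flies and 883, 778 and 684 CPM at 5 h, with overlap. BomS6 fell from 329, 344 and 330.4 CPM to 232, 268 and 204 CPM (log2 change -0.51, SE 0.10, edgeR adjusted p = 0.0148), while the Imd-responsive cecropin genes CecA1 and CecA2 rose by 1.72 (SE 0.36) and 2.18 (SE 0.38) on the log2 scale (edgeR adjusted p = 0.0288 and 0.0272). Naive replicate 1 was needed for all 3 of these calls, naive replicate 2 for BomS6 and CecA1, naive replicate 3 for both cecropins, 5h replicate 1 for BomS6 and CecA1, and 5h replicate 3 for BomS6 and CecA2. The BomBc2 call was lost without naive replicate 1 or 2 or 5h replicate 2 or 3 (edgeR adjusted p up to 0.151). Without naive replicate 1 the count of calls stayed at 1, and without the other 3 libraries it was 0.

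Whether the 5 h responses differ between strains was tested directly. Between hsp70-4c and hsp70-1c 0 of 10 differences passed (0.0465% of all genes called), although 9 of 10 were positive (median 0.39), 6 had unadjusted p under 0.05 and DESeq2 called 3. Of all 10764 genes, 946 had unadjusted p under 0.05 and DESeq2 called 63. The 5 h change of BomBc2 was 0.69 higher on the log2 scale in hsp70-4c than in hsp70-1c (SE 0.16, edgeR adjusted p = 0.158), that of BomS3 0.61 higher (SE 0.17, edgeR adjusted p = 0.288). At 24 h 0 of 10 differences passed either (0% of all genes). There 3 had unadjusted p under 0.05 and DESeq2 called 0, against 509 and 0 of all genes. Between w+hsp70- and hsp70- the count was 0 of 10 (0% of all genes). There 0 had unadjusted p under 0.05 and DESeq2 called 0, against 272 and 4 of all 10223 genes. The other 2 strain pairs with hsp70-4c were added after the values above were seen. Against w+hsp70-, the 5 h change in hsp70-4c was higher for BomS1 by 0.94 (SE 0.17, edgeR adjusted p = 0.0314) and for BomBc2 by 0.77 (SE 0.14, edgeR adjusted p = 0.0395), so 2 of 10 passed, where 0.0856% of all genes were called. The count was 0 without hsp70-4c naive replicate 1 or 4, hsp70-4c 24h replicate 3, w+hsp70- naive replicate 2 or w+hsp70- 5h replicate 3. It was 1 without any hsp70-4c 5h replicate, hsp70-4c naive replicate 2 or 3, hsp70-4c 24h replicate 2, w+hsp70- naive replicate 1 or w+hsp70- 5h replicate 2. Against hsp70- the 10 differences were all positive with a median of 1.16, and BomS1, whose change was 2.83-fold that in hsp70-, BomT2 (log2 difference 1.31, SE 0.25) and BomS3 (1.16, SE 0.22) stood at an edgeR adjusted p of 0.069. There 0 of 10 passed (0.00943% of all genes called), and leaving out hsp70- naive replicate 1 gave 1 call, replicate 3 of that group 6. Of the 10, 8 had unadjusted p under 0.05 and DESeq2 called 7, against 1155 and 94 of all 10607 genes. All of these differences with hsp70-4c share its naive and 5 h libraries with the change within that strain.

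Naive strains differed most in BomBc3, the bicipital gene on 3R. It was at 63.8, 73.2, 101 and 85.1 CPM in hsp70-4c and at 247, 157, 192 and 209 CPM in hsp70-1c. Naive w+hsp70- libraries had 273, 317 and 270.3 CPM, and those of hsp70- 363, 229 and 209.9 CPM. The hsp70-4c libraries lay below all others. The log2 difference was -1.33 for hsp70-4c against hsp70-1c (SE 0.20, edgeR adjusted p = 0.00055), 1.74 for hsp70- against hsp70-4c (SE 0.21, edgeR adjusted p = 0.000102) and 1.84 for w+hsp70- against hsp70-4c (SE 0.21, edgeR adjusted p = 7.41e-05). Each of these calls held under 5 alternative settings and 14 left-out libraries. The 3 share the hsp70-4c libraries. Summed fat body markers were 2941 CPM in naive hsp70-4c, 5193 CPM in hsp70-1c, 2153 CPM in w+hsp70- and 1897 CPM in hsp70-. The differences were uneven between the tested markers. Lsp2, fit, apolpp, Mtp, AkhR and to differed by -2.90, -1.92, -0.28, -0.16, -0.12 and 0.03 (log2) in hsp70- against hsp70-4c. In w+hsp70- against hsp70-4c these were -1.51, -1.24, -0.19, -0.25, -0.03 and -0.07. For hsp70-4c against hsp70-1c they were -1.96, -0.57, -0.14, -0.20, 0.06 and -0.04. The part of the fat body in the BomBc3 values was not tested.

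BomT3, whose start site lies next to that of BomBc3, also had its lowest naive mean in hsp70-4c and its highest in w+hsp70-, and the deviations of the pair within groups correlated at 0.670. Naive BomT3 was at 503 ± 45.6 CPM in hsp70-4c, 594 ± 49.4 CPM in hsp70-1c (n = 4 each), 699.8 ± 65.5 CPM in w+hsp70- and 524 ± 173 CPM in hsp70- (n = 3 each), and none of the 6 naive strain pairs passed for it by edgeR (2 with unadjusted p under 0.05), w+hsp70- against hsp70-4c having a log2 difference of 0.48 (SE 0.16, edgeR adjusted p = 0.0824). Counted against each other, naive hsp70-4c had 0.139, 0.143, 0.179 and 0.178 BomBc3 counts per BomT3 count, naive hsp70-1c 0.375, 0.291, 0.320 and 0.360. In naive w+hsp70- the ratio was 0.359, 0.448 and 0.428, and in naive hsp70- 0.511, 0.468 and 0.566. The naive hsp70-4c libraries lay below those of the other strains and the naive hsp70- libraries above them. In trained hsp70-4c the ratio was 0.201 ± 0.0414 at 5 h and 0.241 ± 0.0723 at 24 h (n = 3 each), with 1 library of 6 above the lowest hsp70-1c library. Strain, genetic background and any batch cannot be told apart in these differences.

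**Figure D4:**
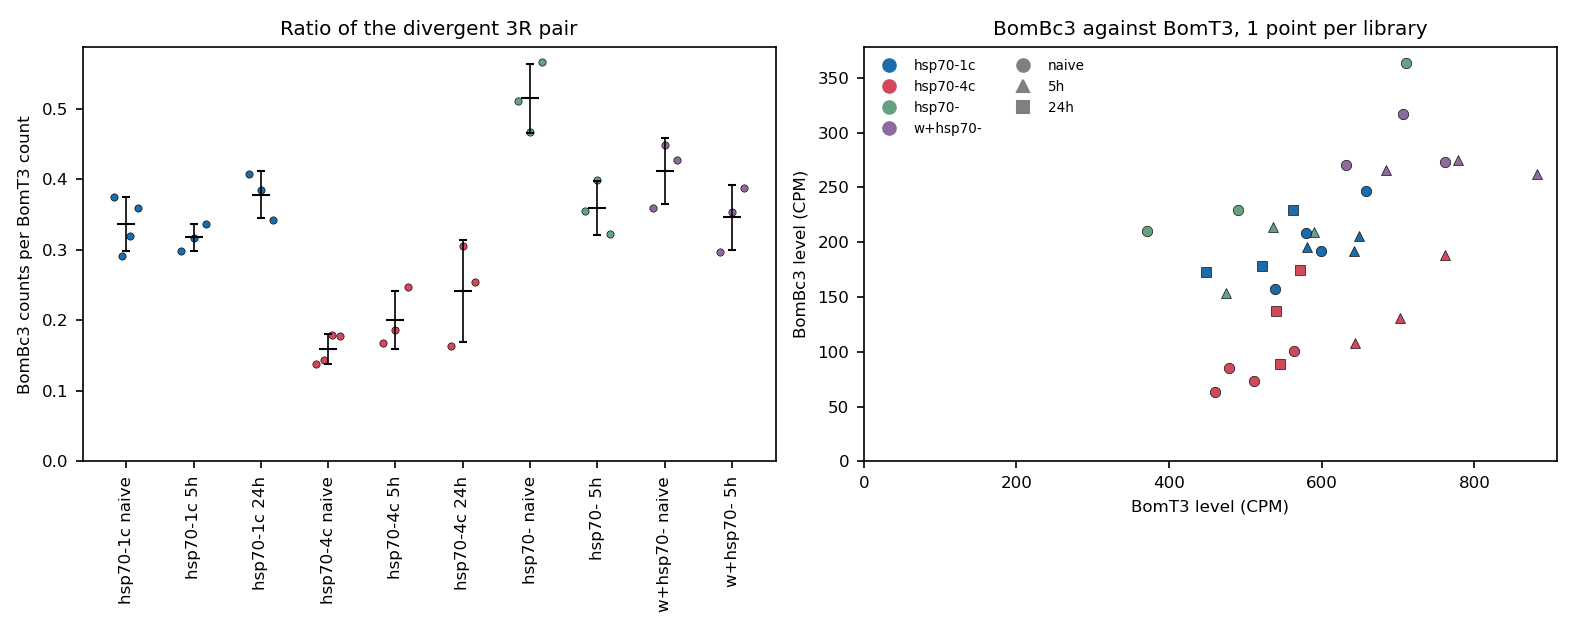
Left, BomBc3 counts per BomT3 count in each library by strain and time (y axis from 0; bars are the group mean with 1 SD); right, BomBc3 level against BomT3 level (CPM), 1 point per library. The naive hsp70-4c libraries have ratios of 0.139 to 0.179, those of naive hsp70- 0.468 to 0.566.

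Other members differed between naive strains as well. Against hsp70-1c, BomBc3 was the 1 member of 10 called in hsp70-4c, as lower (10.1% of all genes called, 5.9% lower; 7.83% below in every library). Naive w+hsp70- had 4 higher and 0 lower than hsp70-4c (9.91% of all genes called, 4.56% higher), 8 had unadjusted p under 0.05 and DESeq2 called 6. Of all 10462 genes, 2374 had unadjusted p under 0.05 and DESeq2 called 1052. BomT2 was at 187, 212 and 172 CPM in w+hsp70- against 88.8, 90.8, 105 and 74.3 CPM in hsp70-4c (log2 difference 1.09, SE 0.19, edgeR adjusted p = 0.00155), and BomS3 at 749, 815 and 747 CPM against 442 to 530.3 CPM (0.64, SE 0.12, edgeR adjusted p = 0.00215). BomBc3 and BomBc1 (0.65, SE 0.18, edgeR adjusted p = 0.0374) were the others, and in 8 of the 10 genes every w+hsp70- library was above every hsp70-4c one, as in 11.1% of all genes. The BomBc1 call was lost without hsp70-1c naive replicate 1 or 3, any naive hsp70-4c or any naive w+hsp70- replicate (edgeR adjusted p up to 0.163), with the replicate number as a block and without the filter on low counts (up to 0.114). The count was 7 without hsp70- naive replicate 1, a library that enters only through the shared spread. Against hsp70-1c, w+hsp70- had 2 higher of 10 (3.15% of all genes called, 0.478% higher), BomS3 by 0.56 (SE 0.12, edgeR adjusted p = 0.0182) and BomT2 by 0.76 (SE 0.19, edgeR adjusted p = 0.0418). Every w+hsp70- library was above every hsp70-1c library in 7 of the 10 genes, as in 6.34% of all genes. That count of calls fell to 0 without hsp70-1c naive replicate 3 or 4 or any of the w+hsp70- naive replicates, and to 1 without hsp70-1c naive replicate 1 or 2, hsp70-4c naive replicate 2 or hsp70- naive replicate 2.

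Naive hsp70- had 5 of 10 higher than hsp70-4c (15.9% of all genes called, 6.9% higher). Beside BomBc3 these were BomS1 (1160.4, 652 and 595 CPM against 399.8 to 523 CPM, log2 difference 0.81, SE 0.20, edgeR adjusted p = 0.0167), BomBc1 (0.72, SE 0.18, edgeR adjusted p = 0.0146), BomT2 (0.67, SE 0.19, edgeR adjusted p = 0.0258) and BomS3 (0.48, SE 0.13, edgeR adjusted p = 0.0128). Without hsp70- naive replicate 1 the log2 difference of BomS1 was 0.44 and 3 members passed, with BomS3 and BomT2 lost. BomT2 was also lost without hsp70-4c naive replicate 1 or 4. With the replicate number as a block 2 passed. In 4 of the 10, BomS1, BomS3, BomBc1 and BomBc3, every hsp70- library was above every hsp70-4c one, as in 11.2% of all genes. Against hsp70-1c 0 of 10 passed (7.53% of all genes called). There 2 had unadjusted p under 0.05 and DESeq2 called 2, against 2215 and 838 of all 10462 genes. BomS1 alone was above in every library (7.41% of all genes were), and 1 passed without hsp70- naive replicate 1 or replicate 3. Between w+hsp70- and hsp70- 0 of 10 passed (0.287% of all genes called), and 1 without hsp70- naive replicate 1. There 1 had unadjusted p under 0.05 and DESeq2 called 0, against 742 and 48 of all genes.

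Among other genes of the pathway, the naive strains also gave calls, in shares to be read against those of all genes above (10.1, 15.9 and 9.91% for the contrasts with hsp70-4c). PGRP-SD, a peptidoglycan recognition protein gene, in naive hsp70-4c was below its level in hsp70-1c (log2 difference -1.04, SE 0.25, edgeR adjusted p = 0.0224), and GNBP1, which works with PGRP-SA in sensing Gram-positive bacteria, was higher (0.50, SE 0.14, edgeR adjusted p = 0.0256), the 2 calls among 12 genes. Against hsp70-4c, 3 of the 12 were lower in hsp70-, GNBP1 (-0.64, SE 0.16), PGRP-SA (-0.45, SE 0.13) and the protease gene modSP (-0.42, SE 0.10), and 2 in w+hsp70-, GNBP1 (-0.60, SE 0.15) and PGRP-SA (-0.41, SE 0.12) (edgeR adjusted p from 0.00922 to 0.0442). All the calls of a contrast were lost without 1 library, hsp70-4c naive replicate 4 for hsp70-1c, hsp70- naive replicate 3 for hsp70-, and w+hsp70- naive replicate 2 or 3 for w+hsp70-. Receptor and cytoplasm genes gave 0 calls of 10 in hsp70-4c against hsp70-1c, and 1 of 10 each in hsp70- and w+hsp70- against hsp70-4c. These were the adaptor gene Myd88 in hsp70- (0.42, SE 0.14) and Pli, Pellino, in w+hsp70- (0.37, SE 0.11). Both were lost without hsp70-4c naive replicate 2 or 3, Myd88 also without hsp70-4c naive replicate 4, hsp70- naive replicate 3 or w+hsp70- naive replicate 1, and Pli without hsp70-1c naive replicate 2 or w+hsp70- naive replicate 2 or 3. Imd-responsive peptides were lower in 6 of 9 cases in hsp70-4c against hsp70-1c, DptA by -5.17 (SE 0.96, edgeR adjusted p = 0.00547) and DptB by -5.08 (SE 1.08, edgeR adjusted p = 0.0122). Without hsp70-4c naive replicate 1 that count was 2, the DptA and DptB calls, and without replicate 3 of that group AttA, AttB and AttC lost theirs. The Bomanins in that contrast had a median of -0.17, with BomBc3 as the 1 call. Against hsp70-1c, PGRP-SD and DptA were also called lower in naive hsp70- and in naive w+hsp70- (7.53 and 3.15% of all genes called). PGRP-SD was the 1 call of 12 genes in each, at -1.22 to -0.84 and -1.36 to -0.99 over the left-out libraries. Imd-responsive calls were 2 of 9 and 1 of 9, and 0 of 9 in either strain against hsp70-4c. Each of these counts against hsp70-1c fell to 0 without some 1 library. Of 7 other Toll-responsive peptide genes, 1 was called in hsp70- and 2 in w+hsp70- against hsp70-4c. IM33 was lower in both (-0.68 to -0.34 and -0.63 to -0.47 over the left-out libraries), where the called Bomanins were higher. BomS6 was higher in w+hsp70- (0.64 to 0.73). Leaving out 1 library took these counts as low as 0 and 1. IM33 was also called lower in both strains against hsp70-1c.

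Within groups, the 10 Bomanins deviated together from library to library. Over the 45 pairs of members the correlation of deviations from the group means was 0.337 to 0.910 (median 0.685, 32 libraries in 10 groups), computed on log2 CPM of the same libraries and therefore sharing depth and scaling. BomS1 and BomBc1, neighbours read in opposite directions, had 0.910, and the lowest pair, BomT1 and BomBc2, 0.337. The 16 pairs between the 2R cluster and the 3R pair had a median of 0.707, the 28 pairs within the cluster 0.682. In hsp70- naive replicate 1 all 10 members were above the group mean, by 0.50 on average (log2), and in replicate 3 of that group all 10 were below, by -0.38. In hsp70-1c naive replicate 2 all 10 were below, by -0.29, and that library had the highest summed level of 8 gut markers of any library, 18149 CPM against 3875 to 9886 CPM in the other naive hsp70-1c libraries; the part of gut RNA in the Bomanin values was not tested.

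**Figure D5:**
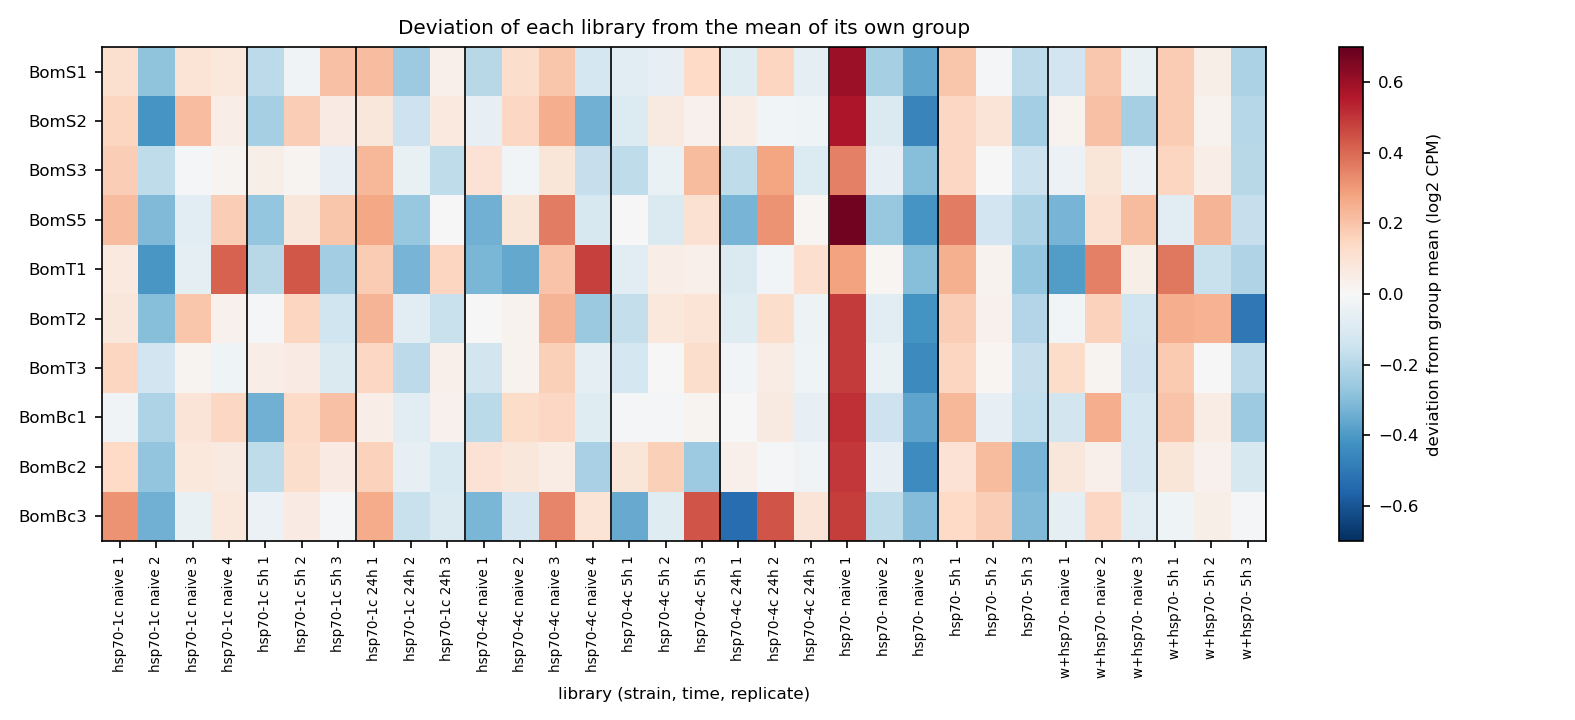
Deviation of each Bomanin gene (rows) in each library (columns, grouped by strain and time) from the mean of its own group, in log2 CPM; red is above and blue below the group mean. The naive hsp70- columns stand out, with replicate 1 above in all 10 genes (mean 0.50) and replicate 3 below in all 10 (mean -0.38).

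The genes outside the 10 whose levels were most like the mean Bomanin level over the 32 libraries were, by Pearson's r among 10833 genes, RpL5 (0.737), BomS6 (0.735), GNBP-like3 (0.730), His4r (0.673), Amacr (0.665), RpS14a (0.660), Dso2 (0.653) and Tgt (0.652). RpL5 and RpS14a encode ribosomal proteins and His4r a histone. Within groups, where strain and time are removed, Dso2 had 0.910, Bbd 0.876 and Dso1 0.793, against 0.665 for RpL5. Of the same list of Toll-responsive peptides, BomS6 had 0.766, IM33 0.750 and Mtk 0.637, the last below RpL5. BomS4, inside the cluster, had 0.417 over all libraries and 0.681 within groups. Of the 10 receptor and cytoplasm genes, the receptor gene Tl (-0.61) and the kinase gene Gprk2 (-0.68) had the lowest values over the libraries. The rest of that list lay between -0.16 and 0.24. Within groups Tl had -0.33 and Gprk2 -0.70. These correlations describe libraries that share depth and scaling and carry no test.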

How the data were processed

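The deposited files hold raw counts of reads per gene, 1 file per library, which the authors made with Trimmomatic, STAR 2.5.0a on dm6 and featureCounts 1.5.0-p1, per the submitters' processing notes. Heads of males, strand-specific libraries and 75-bp single-end reads are per the labels' protocols; the counting's strand setting and annotation release are not given in the sources used here. Gene counts added up to the assigned total in 32 of 32 files, between 58.15 and 68.66% of reads fell outside genes, 1.06 to 1.45% were ambiguous, and 0 multimapping reads were listed. Reads shared between near-identical copies may therefore be missing.

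Tests used edgeR 4.0.16 under R 4.3.3 (filterByExpr, TMM, group-means model, robust quasi-likelihood test, 2-sided, Benjamini-Hochberg over all genes tested, adjusted p under 0.05). Fits held every library of the strain for training, every naive library for naive strain pairs, and every library of both strains for differences of responses, an interaction contrast. There were 17 planned comparisons and 2 added after values were seen. Levels are CPM (counts per 1e+06 reads, TMM over all 32 libraries); correlations used log2 CPM with a prior count of 2. Errors after ± are SD; SE are from the fit. The p-values measure variation between the pools that the labels call biological replicates.

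The members and the gene lists (Toll pathway, Imd peptides, cell type markers) were chosen with earlier results of these data known. Genes named are the members, BomS4, BomS6 and Bbd, up to 4 genes per list and comparison with the smallest p, w and Hsp70Bc, and the 8 genes most like the members. The text gives some of them. Tl, Gprk2, Dso1, nSyb, repo, elav, the fat body markers and lncRNA:enrr were named after their values were seen. Of the list of 11 other Toll peptides 9 were matched, and of 8 fat body markers 7. The alternatives were a single fit of all 32 libraries, no filter, the replicate number as a block, size factors or the Wald test from DESeq2 1.42.0, and each library left out. The method was tried on simulated counts in which genes varied independently. The Bomanins deviate together within groups, so no statement about them rests on that trial. Python 3.11.15, pandas 2.3.3, NumPy 2.4.6 and matplotlib 3.10.9 were used. No gene or protein sequences were used here.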

Additional observations from a re-analysis of the deposited data

Results flagged for a closer look

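BomS1 in hsp70-1c naive replicate 2, at 445 CPM, stood apart from the other 3 naive libraries of that strain, at 568 to 583 CPM. It was the 1 sample to do so among 24 sets of 4 libraries tested, and chance alone flags about 1 in 20 such groups. The same library was the lowest of its group in all 10 Bomanins and the highest of the study in gut markers.

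The 5 h response of BomS1 was 0.94 higher (log2) in hsp70-4c than in w+hsp70-, and that of BomBc2 0.77 higher, both past the adjusted threshold of the edgeR interaction test (adjusted p = 0.0314 and 0.0395). This comparison was added after values were seen, a choice that the adjustment does not cover. Of 16 left-out libraries, 6 lost the BomS1 call and 12 the BomBc2 call. Both calls were lost with all 32 libraries in 1 fit. Every 5 h library of hsp70-4c was above every naive one for BomS1, and in w+hsp70- the means moved from 737 to 635 CPM with overlap.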

How the results depend on the processing

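Alternatives were recomputed for the calls and for the Bomanins with unadjusted p under 0.05, and none of these log2 changes reversed its sign under the 5 alternative settings or with any 1 library left out; the remaining uncalled changes were not recomputed gene by gene. Counts of Bomanins called moved as follows. With all 32 libraries in 1 fit, the count at 5 h was 2 in hsp70- and 0 in w+hsp70-, at 24 h against naive 0 in hsp70-4c, in naive hsp70- against hsp70-1c 1, and for the 5 h differences of hsp70-4c 5 against hsp70- and 0 against w+hsp70-. With the DESeq2 Wald test it was 2 in hsp70-4c at 24 h against naive, 1 at 24 h against 5 h, 2 in naive hsp70- against hsp70-1c, and, for the 5 h differences of hsp70-4c, 3 against hsp70-1c, 7 against hsp70- and 8 against w+hsp70-. Of all genes that test called 271, 171, 838, 63, 94 and 127 in these comparisons, in the same order. Without the filter on low counts the count of Bomanins called was 3 in w+hsp70- at 5 h, 1 in naive w+hsp70- against hsp70-1c and 1 for hsp70-4c minus hsp70-. The cause was not tested. With the replicate number as a block it was 2 in w+hsp70- at 5 h, 2 in naive hsp70- against hsp70-4c and 1 in naive w+hsp70- against hsp70-1c, and the other counts stayed within 1.5 times. The numbers were not taken as pairing the libraries: deviations of same-numbered libraries correlated at -0.286 to 0.443, over 0.1 in 12 of 43 pairs. With each library left out in turn, the count ran from 4 to 6 in hsp70-4c at 5 h, 0 to 1 in hsp70-1c and in w+hsp70- at 5 h and in hsp70-4c at 24 h, 1 to 2 in naive hsp70-4c against hsp70-1c, 0 to 1 in naive w+hsp70- against hsp70- and in naive hsp70- against hsp70-1c, 3 to 5 in naive hsp70- against hsp70-4c, and 0 to 3 and 3 to 7 in naive w+hsp70- against hsp70-1c and hsp70-4c. For the 5 h differences of hsp70-4c it was 0 to 6 against hsp70- and 0 to 2 against w+hsp70-. Depth limits BomT1 most, at 22 to 125 counts per library.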
